A study of Mus musculus with 4 samples.

Results

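Tight junction genes were examined in cell lines from mouse mammary tumors, as 9 genes chosen by symbol: the claudins Cldn1, Cldn3, Cldn4, Cldn6, Cldn7 and Cldn12, the membrane proteins Ocln (occludin) and Marveld2 (tricellulin), and the scaffold protein Tjp1 (ZO-1). All 9 were among the 38713 genes of the expression table with a usable symbol and value, and 8 passed the filter on low values that left 12998 genes for testing. The exception was Cldn6, which reached 1 FPKM in 1 library only. FPKM counts sequenced fragments relative to transcript length and to the number of mapped fragments, so that levels of different genes can be set side by side within a library.

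RNA was sequenced from 4 tumor lines on a C57BL/6 background, with 1 library per line. Both groups came from parous mice in which Wap-Cre, a Cre recombinase made in luminal mammary epithelium during lactation, deleted floxed Trp53. In the JNK_WT lines (replicates 1 and 2, labelled p53-/-) the JNK genes were intact. In the JNK_KO lines (replicates 1 and 3, labelled p53-/- JNK-/-) floxed Mapk8 and Mapk9, which encode JNK1 and JNK2, were deleted as well. Each line was grown from collagenase-dispersed tumor tissue on collagen I and then on standard dishes, so each library shows 1 passaged tumor line.

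Claudins are proteins with 4 membrane-spanning segments that form the strands of tight junctions and seal the space between neighbouring epithelial cells. Occludin and tricellulin lie in the same strands, tricellulin mainly where 3 cells meet, and ZO-1 links the strands to the actin cytoskeleton. In breast cancer, tumors with little Cldn3, Cldn4 and Cldn7 and with mesenchymal features are known as claudin-low, and the transcription factors of the SNAI and ZEB families repress junction genes through E-box sites.

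Libraries were comparable in scale. The upper quartile of the tested genes lay between 33.2 and 34.3 FPKM, and FPKM sums without the 10 most abundant genes of each library lay between 556753 and 566971. Those 10 genes held 39.6% of the sum in JNK_KO replicate 1 and 26.9% to 33.5% in the other libraries. Mapk8 was at 23.9 and 19.1 FPKM in JNK_WT and at 4.30 and 4.27 FPKM in JNK_KO, and Mapk9 was also lower in both JNK_KO libraries, in the direction of the labels (limma adjusted p-values 0.191 and 0.429). Trp53 RNA was between 1.55 and 5.72 FPKM in the 4 lines. All 5 luminal markers (Epcam, Cdh1, Krt8, Krt18 and Krt19) exceeded 1 FPKM in every library, with a summed level of 2072 and 3059 FPKM in JNK_WT and of 895 and 1744 FPKM in JNK_KO. Of 6 endothelial markers none reached 1 FPKM in any library. The summed level of 6 leukocyte markers was 21.9 and 3.67 FPKM in JNK_WT and 3.06 and 9.76 FPKM in JNK_KO, most of it Cd68 (2.65 to 20.0 FPKM). Csf1r reached 1.82 FPKM in JNK_WT replicate 1 and 1.23 FPKM in JNK_KO replicate 3, and the defining Ptprc was at 0.0134 FPKM or less throughout. The summed level of 7 basal markers, among them Krt14, was 25.9 and 732 FPKM in JNK_WT and 37.9 and 375 FPKM in JNK_KO. Of 7 fibroblast markers, Dcn, Pdgfra and Pdgfrb were higher in both JNK_KO libraries. Col1a2 was instead highest in JNK_WT replicate 1, at 10.3 FPKM against 0.374 to 2.56 FPKM, Col1a1 and Col3a1 overlapped between the genotypes, and Lum was at 0.0084 FPKM or less. The summed level of the 7 was 11.7 and 1.66 FPKM in JNK_WT and 108 and 177 FPKM in JNK_KO.

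Cldn3, Cldn4 and Cldn7 were abundant in all 4 lines. The sequences before their transcription starts are shown because these 3 genes made up most of the claudin RNA of every line and carry the description of the claudin-low state. Each sequence holds the 250 bases before the RefSeq start on GRCm38.p6, read 5′ to 3′ on the strand of the gene. The windows were chr5:134985964-134986213 (plus strand) for Cldn3, chr5:134946935-134947184 (minus strand) for Cldn4 and chr11:69964529-69964778 (plus strand, the upstream of 2 starts) for Cldn7. The genes themselves span chr5:134986214-134987472, chr5:134945119-134946934 and chr11:69964779-69967885 in GENCODE on GRCm38. Capitals mark matches to the 3 motifs searched on both strands.
Cldn3: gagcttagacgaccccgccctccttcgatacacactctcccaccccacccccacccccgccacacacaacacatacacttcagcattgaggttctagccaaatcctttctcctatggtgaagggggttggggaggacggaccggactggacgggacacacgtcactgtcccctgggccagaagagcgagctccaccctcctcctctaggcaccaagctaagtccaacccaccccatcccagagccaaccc
Cldn4: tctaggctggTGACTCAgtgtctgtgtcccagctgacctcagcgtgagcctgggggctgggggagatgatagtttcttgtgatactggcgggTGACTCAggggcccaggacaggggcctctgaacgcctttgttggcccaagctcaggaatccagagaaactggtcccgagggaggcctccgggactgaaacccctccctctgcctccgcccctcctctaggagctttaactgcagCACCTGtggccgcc
Cldn7: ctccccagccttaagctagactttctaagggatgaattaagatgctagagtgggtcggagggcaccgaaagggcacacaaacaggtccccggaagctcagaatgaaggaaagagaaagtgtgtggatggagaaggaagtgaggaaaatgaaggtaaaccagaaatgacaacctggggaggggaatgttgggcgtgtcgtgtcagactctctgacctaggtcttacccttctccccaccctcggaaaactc

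The motifs were the E-box CAGGTG read by ZEB and SNAI factors, the AP1 site TGANTCA, read by dimers that contain the JNK substrate JUN, and the Grainyhead-like site AACCNGTT. The Cldn4 window held 2 AP1 matches, which began at positions -240 and -158 from the start, and 1 E-box that began at position -14, and none of these overlapped. The printed Cldn3 and Cldn7 windows held no match. Over the 14 windows of the 9 genes, 4 windows held an E-box (1 each of Cldn4, Cldn6, Cldn7 and Ocln, the Cldn7 matches being at its downstream start), against 17.2% of 32851 such windows in the genome. An AP1 match occurred in the Cldn4 window only, against 6.75% of all windows, and the Grainyhead-like motif in none, against 1.79%. Among 11492 windows of tested genes the shares were 15.6% for the E-box, 4.59% for AP1 and 1.57% for the Grainyhead-like motif. Windows of the same gene overlapped for Cldn12, Ocln and Marveld2, so the 14 are not all distinct sequence. The motif matches describe the letters of short windows and were not tested for binding.

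Cldn4, which with Cldn3 is a sealing claudin and a receptor for a clostridial enterotoxin, had the highest level of the 9 genes in 3 lines and the widest spread among those tested. In JNK_WT replicates 1 and 2 the level was 574 and 430 FPKM, and in JNK_KO replicates 1 and 3 it was 116 and 437 FPKM. JNK_KO replicate 1 thus stood apart, while JNK_KO replicate 3 lay between both JNK_WT lines, and the groups overlapped. The highest level was 4.93 times the lowest, a range of 2.29 on the log2(FPKM + 1) scale. A range of 2 or more was found in 1 of the 8 tested members, and in 12.2% of all tested genes. In bulk RNA, fewer cells that make a transcript and less of it per cell cannot be told apart.

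Cldn3 lies 39279 bases from Cldn4 on chromosome 5, on the opposite strand, with no protein-coding gene between them. It was at 224 and 306 FPKM in JNK_WT and at 163 and 316 FPKM in JNK_KO, so the JNK_KO lines held both the lowest and the highest value. Cldn7, a claudin that binds the adhesion molecule Epcam, was at 206 and 331 FPKM in JNK_WT and at 138 and 271 FPKM in JNK_KO. For both genes JNK_KO replicate 1 was again lowest, and the highest line was 1.93 times the lowest for Cldn3 and 2.39 times for Cldn7. The balance between the neighbours Cldn4 and Cldn3 differed among the lines: their FPKM ratio was 2.56 and 1.41 in JNK_WT and 0.713 and 1.39 in JNK_KO. In JNK_KO replicate 1 Cldn3 therefore exceeded Cldn4, which it did in no other line.

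No line lacked these claudins. Ranked among all tested genes of its own library, Cldn4 lay at percentiles 99.0 and 98.6 in JNK_WT and at 93.8 and 98.7 in JNK_KO. Cldn3 lay between percentiles 95.7 and 98.0 and Cldn7 between 94.9 and 98.2 over the 4 lines. Cldn3, Cldn4 and Cldn7 thus all ranked within the top 10 percent of tested genes in every line, JNK_KO replicate 1 included.

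**Figure D1:**
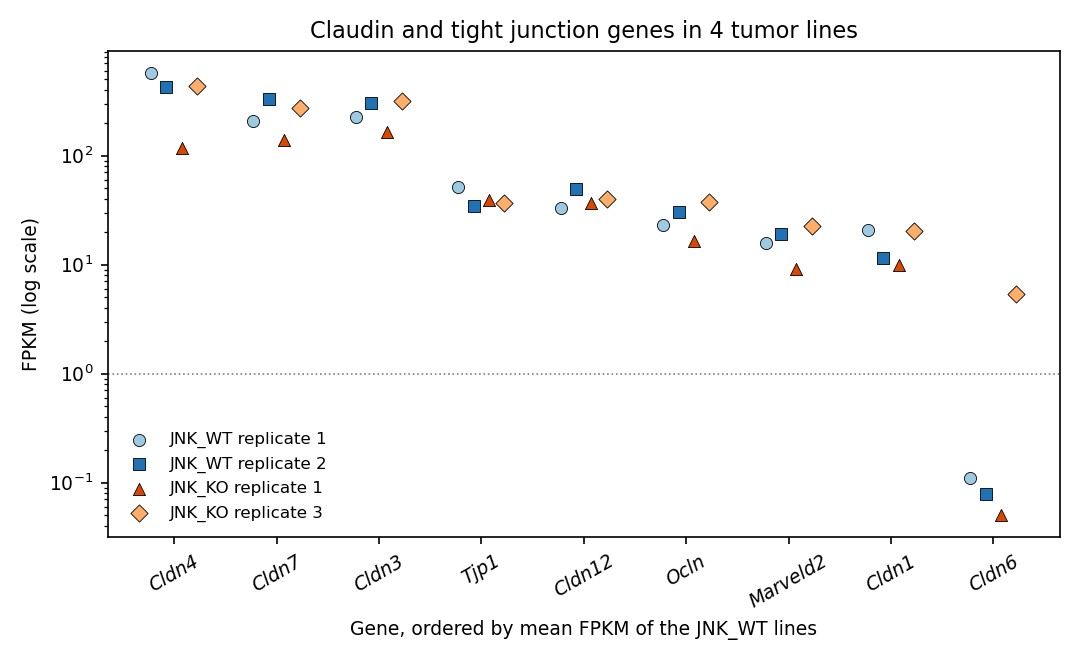
FPKM (log scale) of the 9 claudin and tight junction genes in the 4 tumor lines, 1 symbol per library, with a dotted line at 1 FPKM. JNK_KO replicate 1 (triangles) is lowest for 7 of the 9 genes, and Cldn6 exceeds 1 FPKM in JNK_KO replicate 3 only.

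Of the remaining claudins, Cldn12 (chr5:5489537-5514958, minus strand), an unusual member without the usual PDZ-binding end, varied little, and its highest value was 1.5 times the lowest. It was at 32.8 and 49.2 FPKM in JNK_WT and at 36.9 and 40 FPKM in JNK_KO, with the lowest value in JNK_WT replicate 1. Cldn1 (chr16:26356642-26371841, minus strand), the claudin required for the skin barrier, was at 20.9 and 11.6 FPKM in JNK_WT and at 9.96 and 20.5 FPKM in JNK_KO. Here JNK_WT replicate 2 was nearly as low as JNK_KO replicate 1, and 1 line of each genotype was high.

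Cldn6, known from embryonic epithelium and scarce in adult tissue, was present in a single line. It was at 0.111 and 0.0782 FPKM in JNK_WT, at 0.0505 FPKM in JNK_KO replicate 1 and at 5.36 FPKM in JNK_KO replicate 3. The genotypes overlapped, since JNK_KO held the lowest and the highest value. The values near 0 rest on few reads, and the gene was not tested because it reached 1 FPKM in 1 library only. Its convergent neighbour Cldn9 (chromosome 17, 23682584 to 23684026, minus strand), whose 3′ end lies 137 bases from that of Cldn6 (chromosome 17, 23679249 to 23682446, plus strand), was present in a different line. Cldn9 was at 16.7 FPKM in JNK_WT replicate 1 and at 0.0999, 0.257 and 0.194 FPKM in JNK_WT replicate 2 and JNK_KO replicates 1 and 3. The 2 paralogs thus were not found together, and no stretch of 40 bases, the read length, was shared between their annotated transcripts.

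Another claudin found in 1 line was Cldn2, a pore-forming claudin of leaky epithelia (chromosome X, 139800828 to 139811386, plus strand). It was at 14.3 FPKM in JNK_WT replicate 2 and at 0.0843, 0.143 and 0.473 FPKM in JNK_WT replicate 1 and JNK_KO replicates 1 and 3. Cldn6, Cldn9 and Cldn2 therefore each exceeded 1 FPKM in 1 line only, and in a different line each. Cldn8 exceeded 1 FPKM in JNK_KO replicate 3 only, at 1.53 FPKM against 0.034 to 0.366 FPKM in the others. Cldn23 was between 1.72 and 5.02 FPKM in the 4 lines, with its highest value also in JNK_KO replicate 3. In JNK_KO replicate 1 none of Cldn2, Cldn6, Cldn8 and Cldn9 reached 1 FPKM.

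Over the whole family, 24 claudin genes were listed, of which 6 were at 1 FPKM or more in all 4 lines, 10 in at least 1 line, and 6 were listed at 0 throughout. Their summed level was 1077 and 1145 FPKM in JNK_WT and 469 and 1099 FPKM in JNK_KO. JNK_KO replicate 1 stood apart, while the other 3 lines had similar sums with different shares of each claudin. Cldn4 held 53.3% and 37.5% of the sum in JNK_WT and 24.8% and 39.8% in JNK_KO, and Cldn3, Cldn4 and Cldn7 together held between 89.2% and 93.2% in every line. In JNK_KO replicate 1 the share of Cldn12 was 7.87%, against 3.04% to 4.29% elsewhere. The sum of Cldn3, Cldn4 and Cldn7 in that line was 0.41 times the median of the other lines. A row named Cldn25, at 39.3 to 55.6 FPKM, was left out of these sums, because RefSeq gives that symbol as an older name of Cldnd1 and of a pseudogene.

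**Figure D2:**
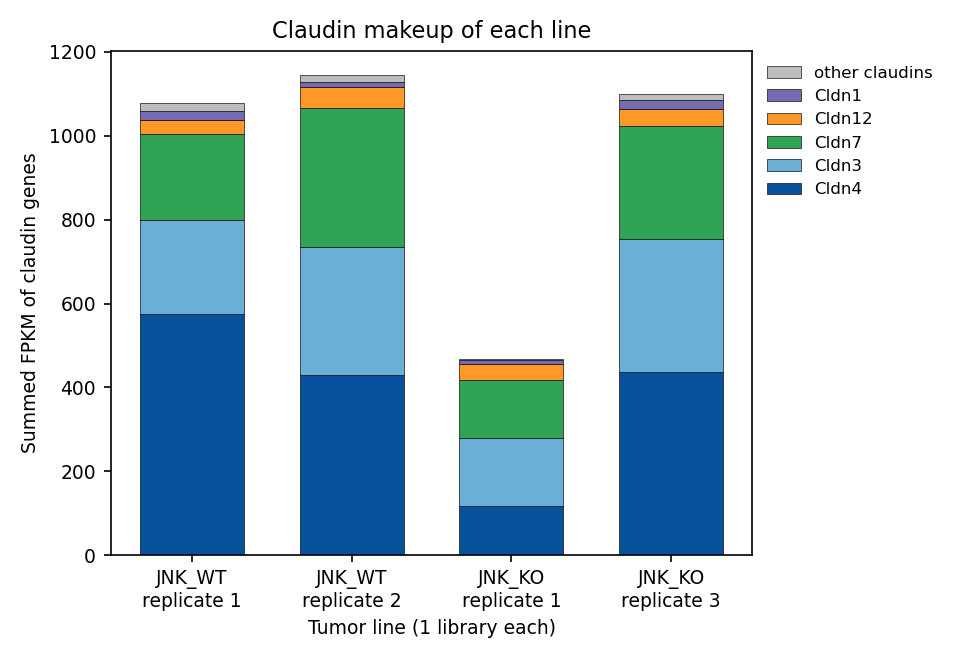
Summed FPKM of the claudin genes in each of the 4 tumor lines, stacked by gene. The sum is 469 FPKM in JNK_KO replicate 1 and between 1077 and 1145 FPKM in the other lines, and Cldn4 is the segment that differs most.

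The MARVEL proteins followed the same order of lines as each other. Ocln (chr13:100496507-100552718, minus strand) was at 23.0 and 30.2 FPKM in JNK_WT and at 16.4 and 37.5 FPKM in JNK_KO. Marveld2, its neighbour at a distance of 43238 bases on the same strand (chr13:100595957-100616971), was at 15.8 and 19.3 FPKM in JNK_WT and at 9.04 and 22.4 FPKM in JNK_KO. For both, JNK_KO replicate 1 was lowest and JNK_KO replicate 3 highest, with both JNK_WT lines between them. The Ocln to Marveld2 ratio stayed between 1.46 and 1.81.

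Tjp1 (chr7:65296165-65527781, minus strand) did not share that order. It was at 51.1 and 34.3 FPKM in JNK_WT and at 38.9 and 36.9 FPKM in JNK_KO, and JNK_KO replicate 1 held the second highest value. With the scaffold at a similar level and the claudins lower, the ratio of summed claudin FPKM to Tjp1 FPKM was 12.0 in JNK_KO replicate 1, 29.8 in JNK_KO replicate 3, and 21.1 and 33.4 in JNK_WT.

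Ordered by level, the 3 abundant claudins stood above the other members in both genotypes. In JNK_WT cells Cldn4 was at 502 ± 102 FPKM, Cldn7 at 268 ± 88.1 FPKM and Cldn3 at 265 ± 57.7 FPKM (SD, n = 2). Next came Tjp1 at 42.7 ± 11.9 FPKM, Cldn12 at 41.0 ± 11.6 FPKM, Ocln at 26.6 ± 5.05 FPKM, Marveld2 at 17.5 ± 2.45 FPKM and Cldn1 at 16.3 ± 6.60 FPKM. Of these neighbours, Cldn7 and Cldn3, Tjp1 and Cldn12, and Marveld2 and Cldn1 differed by less than their spread. In JNK_KO cells Cldn4, Cldn3 and Cldn7, at 277 ± 227, 239 ± 108 and 205 ± 93.6 FPKM (SD, n = 2), differed by less than their spread. The same held there for Cldn12 and Tjp1, at 38.5 ± 2.18 and 37.9 ± 1.41 FPKM, and for Ocln, Marveld2 and Cldn1, at 26.9 ± 14.9, 15.7 ± 9.41 and 15.2 ± 7.48 FPKM. This spread is between lines and does not compare genes within a library. Within each JNK_KO library Cldn3 exceeded Cldn7, and Ocln exceeded Marveld2 and Cldn1. The order of Cldn4 against Cldn3 and Cldn7, of Cldn12 and Tjp1, and of Marveld2 and Cldn1 differed between those libraries. Cldn6 was last in both genotypes, at 0.0944 ± 0.0228 FPKM in JNK_WT and 2.70 ± 3.75 FPKM in JNK_KO.

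The comparison of JNK_KO with JNK_WT asks whether JNK loss altered these genes. None of the 8 tested members was called by limma at an adjusted p-value under 0.05 over all genes with an absolute log2 difference over 0.75, as for 0% of all 12998 tested genes. None had an unadjusted p-value under 0.05, which 7.63% of all genes had. The groups did not overlap for 0 of the 8 members, and for 35.0% of all genes. All 8 log2 differences were below 0, as were 48.6% over all genes, with a median of -0.17 against 0.01 for all genes. An absolute difference over 0.75 was found for 1 of the 8, Cldn4, and for 15.7% of all genes. Cldn4 had a log2 difference of -1.13 (SE 0.68), with a 95% interval of -2.96 to 0.69 and a limma adjusted p-value of 0.863. Next was Cldn7 at -0.43 (SE 0.45), with an interval of -1.62 to 0.76 and a limma adjusted p-value of 0.978. The other 6 lay between -0.27 and -0.06, each with a limma adjusted p-value of 0.999. The interval of Cldn12, from -0.84 to 0.72, and that of Tjp1, from -0.91 to 0.63, were the narrowest, and they mark the precision that 2 lines per genotype gave.

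The differences depended on single lines. Without JNK_KO replicate 1, the median of the 8 members was 0.16 and the differences of Cldn1, Cldn3, Cldn7, Ocln and Marveld2 were above 0, while Cldn4 was at -0.18. Without JNK_WT replicate 1 the difference was above 0 for Cldn1 and Tjp1, at 0.29 and 0.14, and without JNK_WT replicate 2 for Cldn3, Cldn12 and Ocln, at 0.019, 0.22 and 0.11. Without JNK_KO replicate 3 the median was -0.67.

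**Figure D3:**
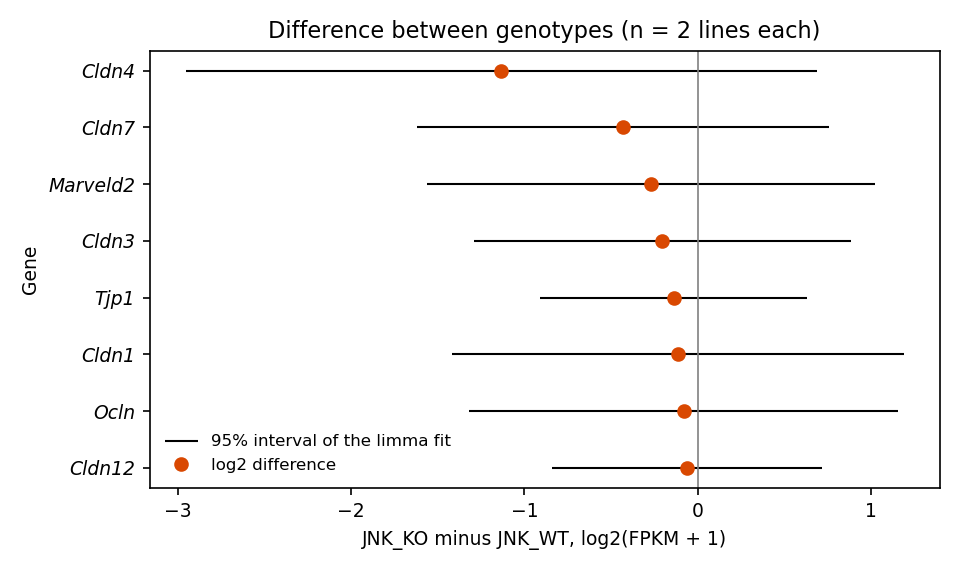
Log2 difference (JNK_KO minus JNK_WT, log2(FPKM + 1)) of the 8 tested members with the 95% interval of the limma fit, n = 2 lines per genotype. Every interval includes 0, and Cldn4 has the widest, from -2.96 to 0.69.

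In these genes the largest distance between lines was within the JNK_KO genotype. The median absolute log2 difference over the 8 members was 0.97 between the JNK_KO lines and 0.50 between the JNK_WT lines. It was smallest, at 0.25, between JNK_WT replicate 2 and JNK_KO replicate 3, and 0.42, 0.52 and 0.87 for the other pairs across genotype. Over all tested genes the JNK_KO lines were instead the closest pair, with a median absolute difference of 0.33, against 0.36 to 0.43 for the other pairs. Lines had 1 library each, so differences between lines had no replicate check.

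JNK_KO replicate 1 was the lowest line for 6 of the 8 tested members (7 of all 9), while 24.3% of all tested genes were lowest there. JNK_WT replicates 1 and 2 were lowest for 1 member each, Cldn12 and Tjp1, against 29.1% and 27.4% of all genes, and JNK_KO replicate 3 for 0, against 19.2%. Highest values fell to JNK_WT replicate 1 for 3 members (26.7% of all genes), to JNK_WT replicate 2 for 2 (26.9%) and to JNK_KO replicate 3 for 3 (21.7%). Of 36 genes of epithelial adhesion and identity 22 were lowest in JNK_KO replicate 1. None of the 36 was called by limma, the groups did not overlap for 10 (2 higher and 8 lower in JNK_KO), against 35.0% of all tested genes (18.3% higher and 16.7% lower), and the median log2 difference was -0.30. Cdh1, the E-cadherin gene, was at 121 and 115 FPKM in JNK_WT and at 58.4 and 127 FPKM in JNK_KO, with JNK_KO replicate 1 lowest and overlapping groups. Epcam was at 360 and 630 FPKM in JNK_WT and at 150 and 286 FPKM in JNK_KO. Its groups did not overlap, and it differed by -1.19 on the log2 scale (SE 0.46, limma adjusted p-value 0.665). Without JNK_KO replicate 1 the Epcam difference was -0.73, and without JNK_WT replicate 2 it was -0.79. Krt8 and Krt18, keratins of luminal cells, were also lowest in JNK_KO replicate 1, at 278 and 385 FPKM. The basal keratin Krt14 was high in JNK_WT replicate 2 and JNK_KO replicate 3, at 443 and 313 FPKM, and at 7.34 and 26.7 FPKM in the other lines, while Krt5 exceeded 1 FPKM in JNK_WT replicate 2 only, at 61.9 FPKM. The part of these basal markers in the levels of the claudins was not tested. Esrp1, a splicing factor of epithelial cells, and the epithelial transcription factors Grhl2 and Ovol2 were lowest in JNK_KO replicate 1 as well, at 28.2, 9.13 and 2.16 FPKM. Elf3 was not, with its lowest value of 7.41 FPKM in JNK_WT replicate 2. It was at 12.8 FPKM in JNK_WT replicate 1 and higher in both JNK_KO lines, at 14.2 and 19.2 FPKM.

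Some mesenchymal genes were high in the same line. Vim, encoding the intermediate filament vimentin, was at 500 FPKM in JNK_KO replicate 1, against 331 and 47.2 FPKM in JNK_WT and 159 FPKM in JNK_KO replicate 3. Of 19 EMT and mesenchymal genes 7 were highest in JNK_KO replicate 1, as were 24.8% of all tested genes and 0 of the 8 members. None of the 19 was called by limma. The groups did not overlap for 7 (4 higher and 3 lower in JNK_KO), a share near the 35.0% of all tested genes. Zeb1, Cdh11, Fbn1 and Prrx1 were the higher genes, and Cdh2, Twist1 and Tagln the lower ones. Of the 19, 5 had an unadjusted limma p-value under 0.05, against 7.63% of all tested genes. An absolute log2 difference over 0.75 was found for 8, against 15.7%. The median log2 difference was 0.46. Among the repressors of junction genes, Zeb2 was at 10.6 FPKM in that line and at 0.914 to 6.20 FPKM in the others. Zeb1 was at 1.96 and 1.02 FPKM in JNK_WT and at 7.44 and 5.76 FPKM in JNK_KO, a log2 difference of 1.63 (SE 0.36, limma adjusted p-value 0.378). Of the tested members, Cldn3, Ocln and Marveld2 were highest in JNK_KO replicate 3, and Cldn4, Cldn7 and the others were not. Zeb2 was at 3.22 FPKM in JNK_KO replicate 3. The part of Zeb1 and Zeb2 in the levels of the members was not tested. Snai1 was at 16.4 and 3.10 FPKM in JNK_WT and at 12.6 and 13.0 FPKM in JNK_KO. Snai2 was highest in JNK_WT replicate 2, at 13.2 FPKM, and Twist1 and Twist2 were highest in JNK_WT replicates 2 and 1, at 35.8 and 5.95 FPKM. Twist1 was at 28.4 and 35.8 FPKM in JNK_WT and at 23.9 and 7.73 FPKM in JNK_KO. Its log2 difference was -1.16 (SE 0.57, limma adjusted p-value 0.788). Cdh2 was at 48.2 and 14.7 FPKM in JNK_WT and at 9.19 and 1.70 FPKM in JNK_KO. The log2 difference of Cdh2 was -2.41 (SE 0.88, limma adjusted p-value 0.645). Vim and Zeb2 were lowest in JNK_WT replicate 2 and highest in JNK_KO replicate 1. Over all 4 lines their order was the reverse of that of Cldn7, and of none of the other 7 tested members. Zeb1 was also highest in JNK_KO replicate 1, but Snai1, Snai2, Twist1 and Twist2 were not. With 4 lines this order is a description, and the part in it of Dcn, Pdgfra and Pdgfrb, the fibroblast markers that were higher in both JNK_KO lines, was not tested.

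**Figure D4:**
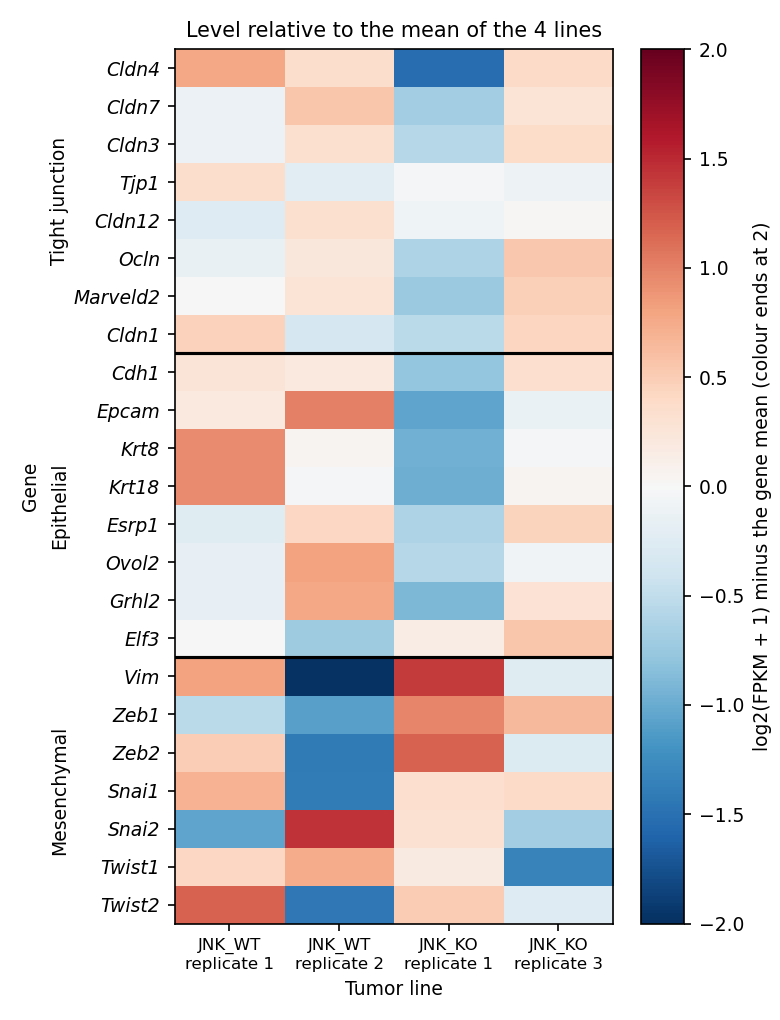
Level of the 8 tested members, 8 epithelial genes and 7 mesenchymal genes in each tumor line, as log2(FPKM + 1) minus the mean of the gene over the 4 lines. The column of JNK_KO replicate 1 is below the mean for all 8 tight junction genes and above it for the 7 mesenchymal genes drawn. Of the same list but not drawn, Acta2 (-1.44), Foxc1 (-0.61), Tagln (-0.26), Cdh2 (-0.25) and Tcf4 (-0.00072) were below their mean in that line.

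Other genes of the junction were examined as a list of 55 symbols of further claudins, scaffolds and polarity proteins, of which 52 were in the table and 32 were tested. None was called by limma, 2 had an unadjusted p-value under 0.05, and the groups did not overlap for 4 of the 32. Of these 1 was higher and 3 were lower in JNK_KO, against 18.3% and 16.7% of all tested genes. The median log2 difference was -0.17, near that of the 8 members. Both genes with an absolute difference over 0.75 and groups that did not overlap are cytoplasmic. Magi1, a PDZ scaffold of the junction, was at 15.6 and 15.1 FPKM in JNK_WT and at 4.76 and 5.71 FPKM in JNK_KO, a log2 difference of -1.40 (SE 0.28, limma adjusted p-value 0.331). Pard3b, a relative of the polarity protein PAR3, was at 0.0301 and 0.106 FPKM in JNK_WT and at 1.52 and 1.03 FPKM in JNK_KO, a difference of 1.08 (SE 0.31, limma adjusted p-value 0.485). The Pard3b difference ranged from 0.68 with quantile normalization to 3.05 with a pseudocount of 0.1, and its JNK_WT levels were near 0.

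To find the genes whose profile was most like that of Cldn3, Cldn4 and Cldn7, the mean absolute distance between centred log2 values was taken over the 4 lines. The mean profile of the 3 claudins was 0.18 and 0.41 in JNK_WT and -0.93 and 0.34 in JNK_KO. The 5 nearest genes outside the members were the pseudogene Gm11483 (distance 0.0365), Ube2b (0.0385), Ndel1 (0.0474), Plekhh1 (0.0540) and Aldh3a2 (0.0567), where the median over all tested genes was 0.53. Marveld2 was at 0.16, with 90 genes nearer, Ocln at 0.25, with 409 nearer, and Tjp1 at 0.54, with 6738 nearer. Cldn1 was at 0.38, with 1942 nearer, and Cldn12 at 0.42, with 3025 nearer. The 3 claudins themselves differed from their mean profile. Cldn7 and Cldn3 were both at 0.19, with 146 and 158 nearer. Cldn4 was at 0.32, with 999 nearer, and so lay farther from that mean than Ocln and Marveld2. With 4 lines many genes share a profile, and likeness is given as a description.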

How the data were processed

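RNA-seq libraries of 4 tumor cell lines were analysed from a table of FPKM values. The authors trimmed 40 base single-end reads, aligned them to mm10 (GRCm38) with Bowtie2 and TopHat2 2.0.14 and deposited FPKM from Cufflinks 2.2.1. Libraries were not pooled. To compare these lines with further groups, the authors also sampled reads with seqtk. Whether the deposited values came from sampled reads was not stated. Strand-specific counting and the annotation were not given in the sources used here.

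Of 38741 rows, 27 with symbols turned into dates and 1 without a value were left out. Genes with at least 1 FPKM in at least 2 libraries were tested on log2(FPKM + 1), which understates differences of low genes, with limma 3.58.1 under R 4.3.3, with moderated variances that follow an intensity trend. Tests were two-sided and adjusted by Benjamini-Hochberg over all tested genes. The script was tested on simulated data. No count model was fitted. Read depth is not recorded in FPKM. Steps in low values gave depths relative to JNK_KO replicate 1 of 1.06, 1.27 and 1.41 for JNK_WT replicates 1 and 2 and JNK_KO replicate 3. The members and gene lists were chosen with earlier results of these data known. Genes named were the members, Mapk8, Mapk9 and Trp53, cell type markers, claudins over 1 FPKM in any line, listed junction genes over 0.75 whose groups did not overlap, fixed epithelial and mesenchymal markers, and 5 genes of nearest profile. Positions came from GENCODE M21 and sequences from RefSeq (GRCm38.p6), where all 9 members matched. Of all stretches of 40 bases in the members' annotated transcripts, 1, in Cldn3, was shared with another gene, the overlapping antisense Wbscr25, whose reads cannot be told apart there without strand. P-values measure the spread between lines.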

Additional observations from a re-analysis of the deposited data

How the results depend on the processing

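No paired analysis was made, because the labels do not pair lines across the genotypes. In 64 refits of the 8 tested members with other pseudocounts, filters, scalings and variance models, none reversed and none was called. In 32 fits that each left out 1 library none was called and 10 reversed. These were Cldn1 (0.29 without JNK_WT replicate 1, 0.37 without JNK_KO replicate 1), Cldn3 (0.019 without JNK_WT replicate 2, 0.27 without JNK_KO replicate 1), Cldn7 (0.052), Ocln (0.49) and Marveld2 (0.34) without JNK_KO replicate 1, Cldn12 (0.22) and Ocln (0.11) without JNK_WT replicate 2, and Tjp1 (0.14) without JNK_WT replicate 1. Cdh1 was at 0.11 without JNK_KO replicate 1. The lowest values of those fits were -0.60 for Cldn1, -0.68 for Cldn3, -0.91 for Cldn7, -0.35 for Cldn12, -0.66 for Ocln, -0.42 for Tjp1, -0.88 for Marveld2 and -1.002 for Cdh1. Cldn4 ranged from -2.08 to -0.18, the members' median from -0.67 to 0.16, that of the other junction genes from -0.37 to 0.021, of the epithelial genes from -0.69 to 0.19 and of the mesenchymal genes from -0.011 to 0.80. By construction groups overlap less often there. Non-overlapping groups numbered 3 to 6 among the members and 7932 to 9372 among all genes, and 0 or 1 members had a range of at least 2. Dropping the filter gave 8098 non-overlapping genes of 38713, and 2 members with that range, Cldn6 being the second. The pseudocounts 0.1 and 0.5 gave 10 and 14 called genes, a fit with no intensity trend 14, and an adjusted p-value threshold of 0.1 gave 25. Every other setting gave 0, and as reported 992 genes were at an unadjusted p-value under 0.05. The cause was not tested. Of the other junction genes, 7 had groups that did not overlap under quantile or upper quartile scaling. As checks chosen after the data were seen, JNK_KO replicate 1 was lowest for 6 of the 8 tested members under every scaling tried, and its summed Cldn3, Cldn4 and Cldn7 stayed at 0.41 of the median of the other lines. Precision is limited by 2 lines per genotype.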
